A study of Mus musculus with 48 samples.

Results

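The genes described here are the 8 mouse genes B2m, H2-D1, H2-K1, Tap1, Tap2, Tapbp, Psmb8 and Psmb9, which make and load the MHC class I molecule. They were chosen by name, and all 8 are among the 16014 genes of the deposited expression table. All 8 passed the filter on low values, which left 15975 genes for testing. RNA was sequenced from cortex, hippocampus and thalamus (dissected together with striatum) of C57BL/6 mice in 4 conditions, with 4 libraries for each condition and region and 48 libraries in all. 5xFAD + PLX5622 mice carried the 5xFAD transgenes and ate chow with 1200 ppm PLX5622, an inhibitor of the receptor CSF1R on which microglia depend for survival, starting at 1.5 months and ending at 7 months. 5xFAD mice carried the same transgenes and ate control chow over the same months. PLX5622 mice lacked the transgenes and ate the PLX5622 chow, and Wild-type mice lacked them and ate control chow. The 5xFAD transgenes carry familial Alzheimer's disease mutations and are driven in neurons by the Thy1 promoter. All mice were perfused with saline before the brain was removed and were 7 months old at collection.

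MHC class I molecules show peptides from the cell's own proteins to CD8 T cells and natural killer cells. The proteasome cuts proteins into peptides, and under interferon its standard catalytic chains are exchanged for the inducible chains made by Psmb8 and Psmb9 (the immunoproteasome). The transporter made of TAP1 and TAP2 carries peptides into the endoplasmic reticulum, where tapasin (Tapbp) holds the empty class I molecule beside it, and the loaded complex of a heavy chain and beta-2-microglobulin (B2m) leaves for the cell surface. In the brain, class I genes are known from microglia, endothelium and neurons, and interferon raises them in many cell types.

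B2m lies on chromosome 2 (RefSeq, GRCm38.p6, chr2:122147687-122153082), and the other 7 genes lie in the MHC region of chromosome 17. H2-K1, one of the classical heavy chains, spans chr17:33996012-34000619, and H2-D1, the other classical heavy chain of this strain, spans chr17:35263094-35267497. Tapbp spans chr17:33919478-33929290. The others stand side by side: Psmb9 at chr17:34182030-34187330, Tap1 at chr17:34187556-34197225, Psmb8 at chr17:34198195-34201454 and Tap2 at chr17:34204479-34216321. Tap1 and Psmb9 start on opposite strands with 225 bases between their starts.

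The RefSeq promoter table of the same build held 7 of the 8 genes. Tap2 was missing from it and was not searched. The 250 bases before each start were searched on both strands for the motifs of the factors that drive class I genes. These stretches are shown because several of the 8 genes moved together in the data below. Each is written 5′ to 3′ on the gene's strand, and capitals mark motif matches. The B2m stretch (chr2:122147537-122147667, plus strand) runs from 150 to 20 bases before the start. It holds, in order, the core of the interferon-stimulated response element (GAAANNGAAA), an NF-κB consensus match on the opposite strand, TGACG and a CCAAT box on the opposite strand. The H2-D1 (chr17:35262924-35262953, plus strand) and H2-K1 (chr17:34000428-34000457, minus strand) stretches open with an NF-κB consensus match, which reads as a match on both strands. The Tap1 stretch (chr17:34187461-34187490, plus strand) holds TGACG, and the Psmb8 stretch (chr17:34198088-34198117, plus strand) holds a gamma-activated site (TTCNNNGAA).
B2m: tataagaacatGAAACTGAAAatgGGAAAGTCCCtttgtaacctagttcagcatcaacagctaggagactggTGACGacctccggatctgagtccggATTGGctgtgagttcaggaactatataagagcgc
H2-D1: GGGATTCCCCatctcctcagtttcacttct
H2-K1: GGGATTCCCCatctccacagtttcacttct
Tap1: agagacaggTGACGacagagggtcctgccc
Psmb8: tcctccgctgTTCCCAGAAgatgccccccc
The H2-D1 and H2-K1 stretches are equal at 29 of 30 bases. The interferon-stimulated response element core was found in 1 of the 7 promoters (B2m) and in 3.04% of 27025 promoters of the table. Only exact matches were counted. The H2-D1 and H2-K1 stretches both hold tttcacttc, a near form of this core on the opposite strand, so the count does not show that they lack the element. The gamma-activated site was found in 1 (Psmb8) and in 7.18% of all promoters. The NF-κB consensus was found in 3 (B2m, H2-D1 and H2-K1) and in 7.01% of all promoters. TGACG was found in 5 (B2m, H2-D1, H2-K1, Tap1 and Psmb9) and in 17.9% of all promoters, and the CCAAT box in 6 (all those searched but Psmb8) and in 34.5%. A match is a description of these letters and not of binding.

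Values are RPKM, reads scaled to gene length and library size, as the authors deposited them, so levels can be set side by side between genes. Reads recovered from the steps of the RPKM values gave 6194455 to 16021617 reads per library. B2m was the most abundant of the 8, with a mean of 67.7 RPKM over 48 libraries and 256 to 1854 reads per library. H2-D1 averaged 15.6 RPKM, Tapbp 11.3, H2-K1 10.9, Tap2 3.40, Psmb8 1.92, Tap1 1.22 and Psmb9 0.985. The low genes rest on few reads: Psmb9 had 1 to 48 reads per library (median 7), Psmb8 8 to 124 and Tap1 9 to 189. None of the 8 was at 0 in any library.

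Some hippocampal libraries stood apart before any comparison was made. The summed RPKM of the MHC class II genes was 146 in the third 5xFAD hippocampus library, against 16.7 to 52.0 in the other 3, and 39.9 in the third Wild-type hippocampus library, against 6.52 to 11.4 in the other 3. It was also high in the third 5xFAD cortex library (54.7, against 12.1 to 17.4). The summed RPKM of the interferon response genes was 90.0 in the third Wild-type hippocampus library, against 32.0 to 46.0 in the other 3, and 50.9 to 93.1 in the 5xFAD hippocampus libraries. Replicates 3 and 4 of 5xFAD + PLX5622 hippocampus held liver transcripts (summed RPKM of 7 liver genes 1534 and 622, against 138 and 257 in replicates 1 and 2). The summed RPKM of 6 choroid plexus markers was 1434 in the third 5xFAD + PLX5622 hippocampus library (71.1 to 237 in the other 3), 3925 in the second PLX5622 hippocampus library (216 to 465 in the other 3) and 4292 in the third Wild-type hippocampus library (96.03 to 204 in the other 3). It was 110 to 232 in 5xFAD hippocampus. The third Wild-type library is thus high in class II, interferon response and choroid plexus transcripts alike, and it recurs in the hippocampal comparisons below. Markers of neurons (summed RPKM of 6 genes 976 to 2447), astrocytes (8 genes, 962 to 1521) and oligodendrocytes (6 genes, 559 to 1921) were present in all 48 libraries. The summed RPKM of 15 microglia markers was low in the groups on PLX5622. In hippocampus it was 49.0 to 178 in 5xFAD + PLX5622 hippocampus, 418 to 495 in 5xFAD hippocampus, 16.6 to 28.5 in PLX5622 hippocampus and 178 to 197 in Wild-type hippocampus. In cortex it was 28.4 to 42.1, 291 to 444, 14.7 to 37.2 and 178 to 198 in the same order of conditions, and in thalamus 19.9 to 36.8, 295 to 401, 16.8 to 45.5 and 191 to 230. In each region every 5xFAD library lay above every Wild-type library in this sum. In whole tissue, fewer cells of a type and less RNA per cell cannot be told apart.

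The first question was whether the 5xFAD genotype changed the 8 genes in each region. B2m was higher in 5xFAD than in Wild-type mice in all 3 regions, and in hippocampus it was joined by both heavy chains and Psmb8. At an adjusted p under 0.05 in limma, 4 of the 8 genes were called in hippocampus, all higher, against 1.96% of all genes tested. The cortex had 2 calls (B2m and H2-D1), both higher, against 0.732% of all genes, and the thalamus had 1 (B2m), against 0.413%. The median log2 fold change over the 8 genes was 0.73 (cortex), 0.89 (hippocampus) and 0.40 (thalamus), beside 0.00, -0.01 and 0.00 over all genes tested. Fold changes are on the log2(RPKM + 0.1) scale, which understates changes of low genes.

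B2m, the light chain that every class I molecule needs to fold and leave the cell, had 83.0, 69.9, 146 and 116 RPKM in 5xFAD cortex, against 66.7, 52.3, 59.8 and 57.1 RPKM in Wild-type cortex. In hippocampus it had 109, 106, 167 and 115 RPKM in 5xFAD libraries, against 57.1, 60.0, 88.1 and 62.8 RPKM in Wild-type libraries. In thalamus it had 78.1, 80.9, 93.3 and 92.8 RPKM in 5xFAD libraries, against 50.7, 59.5, 65.1 and 52.7 RPKM in Wild-type libraries. Every 5xFAD library lay above every Wild-type library of its region, and the highest value in hippocampus came from the third library of each genotype. The log2 fold change was 0.76 (SE 0.157, limma adjusted p = 0.00163) in cortex, 0.89 (SE 0.157, limma adjusted p = 0.000244) in hippocampus and 0.60 (SE 0.157, limma adjusted p = 0.0161) in thalamus. The thalamic call was lost when p-values were adjusted within that comparison alone (limma adjusted p = 0.212) and without replicate 3 of 5xFAD or replicate 1 or 4 of Wild-type thalamus (limma adjusted p up to 0.0515). By an exact two-sided permutation test of 4 against 4 libraries, each of the 3 comparisons gave p = 0.0286, the smallest p that this design allows. Of all genes tested, 3.44% in cortex, 3.92% in hippocampus and 1.41% in thalamus had every 5xFAD library above every Wild-type library.

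H2-D1 had 23.02, 20.9, 42.9 and 23.3 RPKM in 5xFAD hippocampus, against 12.03, 11.3, 21.1 and 13.5 RPKM in Wild-type hippocampus. In cortex it had 15.8, 13.8, 27.4 and 17.4 RPKM in 5xFAD libraries, against 13.002, 9.91, 10.5 and 9.60 RPKM in Wild-type libraries. In cortex the groups did not overlap. In hippocampus the third Wild-type library (21.1) lay above the lowest 5xFAD library (20.9), and the part of its choroid plexus and class II transcripts in this was not tested. H2-D1 rose by 0.91 (SE 0.189, limma adjusted p = 0.00187) in hippocampus and by 0.75 (SE 0.189, limma adjusted p = 0.0124) in cortex on the log2 scale. In thalamus the log2 fold change was 0.46 (limma adjusted p = 0.177), with 18.3, 20.3, 21.6 and 18.8 RPKM in 5xFAD libraries and 11.2, 13.9, 18.2 and 14.6 RPKM in Wild-type libraries. Without the third 5xFAD cortex library the cortical fold change was 0.54 and was no longer called (limma adjusted p = 0.0953).

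H2-K1 had 16.4, 15.2, 31.6 and 14.3 RPKM in 5xFAD hippocampus, against 8.64, 6.82, 17.5 and 9.18 RPKM in Wild-type hippocampus, a log2 rise of 0.89 (SE 0.231, limma adjusted p = 0.0153). The groups overlapped through the third Wild-type library. Without the third 5xFAD hippocampus library the fold change was 0.63 and was not called (limma adjusted p = 0.119). It was not called either without the second Wild-type hippocampus library (limma adjusted p = 0.0824). With replicate 3 of 5xFAD and of Wild-type hippocampus both left out, an alternative chosen after seeing the data, it was 0.90 and was called. In cortex the log2 fold change was 0.72 (limma adjusted p = 0.0635, called in 7 alternatives, at 0.0148 to 0.0463), and in thalamus it was 0.37, not called. H2-K1 and H2-D1 are close relatives, and how reads that fit both were counted is not given in the sources used here, so the share of each in their common signal is uncertain.

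**Figure D1:**
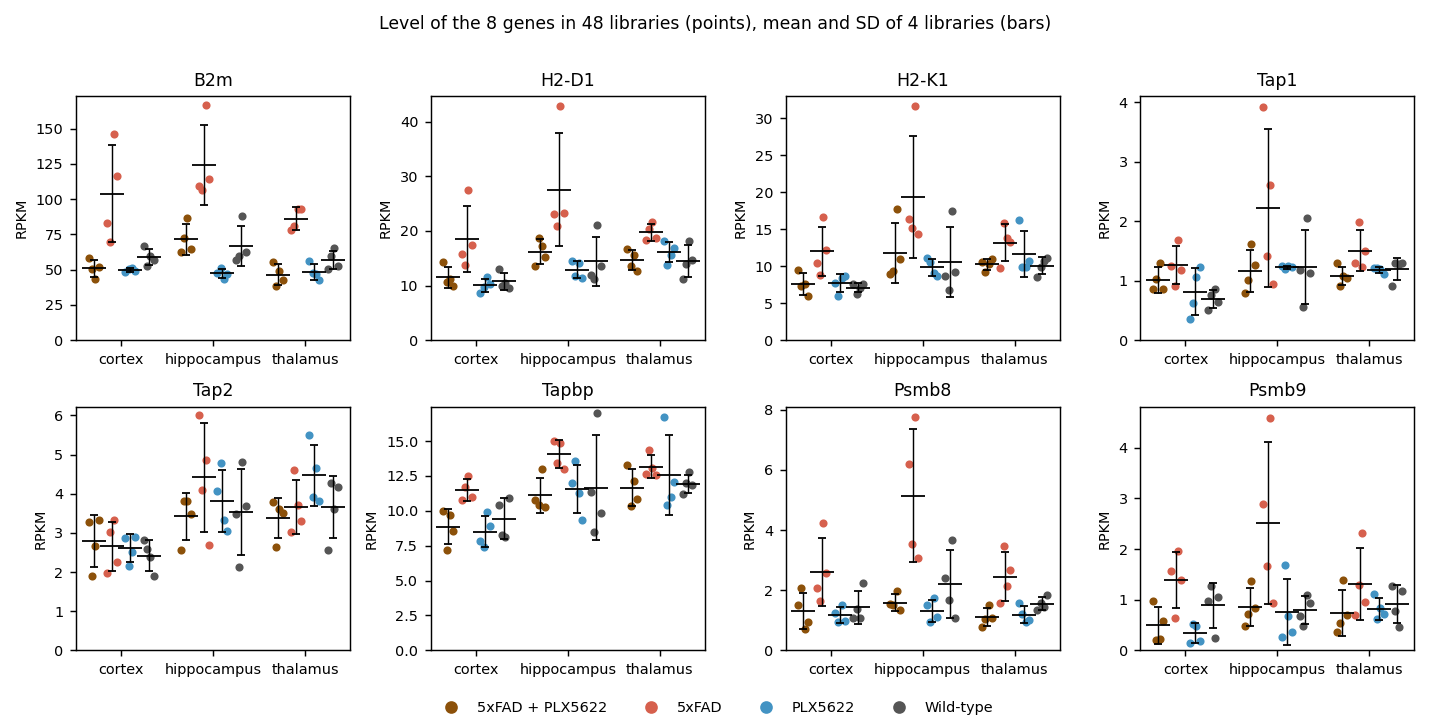
RPKM of each of the 8 genes (y axis, from 0, a scale of its own in each panel) in cortex, hippocampus and thalamus (x axis), with 1 point per library for 5xFAD + PLX5622, 5xFAD, PLX5622 and Wild-type mice, and bars for the mean and SD of 4 libraries. B2m in 5xFAD hippocampus sits between 106 and 167 RPKM, above all Wild-type hippocampus libraries (57.1 to 88.1), and the third 5xFAD hippocampus library is the highest point for B2m, H2-D1, H2-K1, Psmb8 and Psmb9.

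The peptide transporter and tapasin were not called in any region with all libraries fitted. Tap1 had 3.92, 1.42, 2.61 and 0.948 RPKM in 5xFAD hippocampus, against 1.18, 0.555, 2.06 and 1.13 RPKM in Wild-type hippocampus (log2 fold change 0.74, SE 0.307, limma adjusted p = 0.186). The spread among the 5xFAD libraries was wide, and their range covered the Wild-type values from 1.13 upward. Without replicate 4 of 5xFAD hippocampus Tap1 was called (1.06, limma adjusted p = 0.0324). In cortex the log2 fold change of Tap1 was 0.78 (limma adjusted p = 0.157), with 1.25, 0.912, 1.69 and 1.19 RPKM in 5xFAD libraries, all above the 0.506, 0.756, 0.853 and 0.638 RPKM of Wild-type libraries. Tap2, its partner chain, had log2 fold changes of 0.11 in cortex, 0.31 (limma adjusted p = 0.553) in hippocampus and 0.01 in thalamus. Tapbp had 0.29 (limma adjusted p = 0.31), 0.32 (limma adjusted p = 0.255) and 0.14 in the same order of regions. In hippocampus Tapbp was called without the third Wild-type library (0.51, limma adjusted p = 0.0192) and, in the alternative chosen after seeing the data, without replicate 3 of both 5xFAD and Wild-type hippocampus (0.49, limma adjusted p = 0.0499). The RefSeq spans of Psmb9 and Tap1 do not overlap, but the genes lie close together on opposite strands. Whether reads were counted by strand is not given in the sources used here, so reads from near both starts are uncertain.

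Psmb8, the inducible chain that takes the place of Psmb5 in the proteasome, had 6.20, 3.54, 7.75 and 3.08 RPKM in 5xFAD hippocampus, against 2.40, 1.66, 3.68 and 1.06 RPKM in Wild-type hippocampus. Replicates 1 and 3 of 5xFAD hippocampus were the highest of the study, and the third Wild-type library overlapped the 2 lowest 5xFAD libraries. The log2 rise was 1.22 (SE 0.322, limma adjusted p = 0.0163). It was not called without the first 5xFAD library (limma adjusted p = 0.0596), without the third (1.00, limma adjusted p = 0.0876) or without replicate 4 of Wild-type hippocampus (0.94, limma adjusted p = 0.105). In cortex the log2 fold change was 0.80 (limma adjusted p = 0.168) and in thalamus 0.58 (limma adjusted p = 0.389). Psmb9, the inducible counterpart of Psmb6, had 2.88, 1.67, 4.59 and 0.934 RPKM in 5xFAD hippocampus, against 0.671, 0.484, 1.09 and 0.938 RPKM in Wild-type hippocampus. Its log2 fold change of 1.38 was the largest of the 8. With 7 to 48 reads in the 5xFAD libraries its SE was 0.499. The main fit did not call it (limma adjusted p = 0.109), but some alternatives did. Voom put the Psmb9 rise at 1.55 (adjusted p = 0.038 in limma). Raising the pseudocount to 1 gave 0.87 (adjusted p = 0.0339 in limma). Leaving out replicate 4 of 5xFAD hippocampus gave 1.755 (adjusted p = 0.0385 in limma). Psmb9 stayed uncalled here in the other alternatives. With each region fitted alone, none of H2-D1, H2-K1 and Psmb8 was called in hippocampus (limma adjusted p = 0.0728, 0.277 and 0.161).

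The next question was what PLX5622 did to these genes in 5xFAD mice. The 5xFAD libraries are shared with the comparison above, so the values of both comparisons are given side by side and no relation between them is drawn. B2m fell in all 3 regions, H2-D1 fell in cortex and hippocampus, and Psmb8 fell in hippocampus and thalamus. The cortex had 2 of 8 genes called (2.13% of all genes called), the hippocampus 3 (2.96%) and the thalamus 2 (2.76%), and every one of them was lower. The median log2 fold change over the 8 genes was -0.64 (cortex), -0.72 (hippocampus) and -0.43 (thalamus), beside 0.01, 0.02 and 0.02 over all genes tested.

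B2m had 58.2, 50.2, 43.4 and 51.7 RPKM in 5xFAD + PLX5622 cortex, against 83.0, 69.9, 146 and 116 RPKM in 5xFAD cortex. In hippocampus it had 62.3, 72.5, 86.8 and 65.0 RPKM in 5xFAD + PLX5622 libraries, against 109, 106, 167 and 115 RPKM in 5xFAD libraries. In thalamus it had 55.7, 38.6, 48.9 and 43.0 RPKM in 5xFAD + PLX5622 libraries, against 78.1, 80.9, 93.3 and 92.8 RPKM in 5xFAD libraries. No treated library reached an untreated one in any region. The same held for 3.6% of all genes tested in cortex, 4.06% in hippocampus and 3.96% in thalamus. B2m fell by 0.98 (SE 0.157, limma adjusted p = 5.87e-05) in cortex, by 0.78 (limma adjusted p = 0.00124) in hippocampus and by 0.90 (limma adjusted p = 0.000201) in thalamus on the log2 scale, and these 3 calls held under every alternative tried.

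H2-D1 had 13.6, 18.7, 17.2 and 15.2 RPKM in 5xFAD + PLX5622 hippocampus, all below the 23.02, 20.9, 42.9 and 23.3 RPKM of 5xFAD hippocampus (log2 fold change -0.71, SE 0.189, limma adjusted p = 0.0185). In cortex it had 14.3, 10.6, 11.2 and 9.98 RPKM in 5xFAD + PLX5622 libraries, against 15.8, 13.8, 27.4 and 17.4 RPKM in 5xFAD libraries (log2 fold change -0.65, limma adjusted p = 0.034), and the groups overlapped at their edge. Without the third 5xFAD library of the region neither was called, with fold changes of -0.45 in cortex (limma adjusted p = 0.199) and -0.48 in hippocampus (limma adjusted p = 0.147). The cortical call was also lost without replicate 4 of 5xFAD cortex or replicate 2, 3 or 4 of 5xFAD + PLX5622 cortex (limma adjusted p = 0.0563 to 0.0969), and the hippocampal call without replicate 1 of 5xFAD + PLX5622 hippocampus (limma adjusted p = 0.0625) or without both replicates that held liver transcripts (-0.72, limma adjusted p = 0.0683). In thalamus H2-D1 had 16.7, 13.6, 15.5 and 12.7 RPKM in 5xFAD + PLX5622 libraries, all below the 18.3, 20.3, 21.6 and 18.8 RPKM of 5xFAD libraries, but it was not called (log2 fold change -0.44, limma adjusted p = 0.214).

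H2-K1 had log2 fold changes of -0.63 (limma adjusted p = 0.114) in cortex, -0.69 (limma adjusted p = 0.0753) in hippocampus and -0.34 in thalamus. The hippocampal value was called with voom (-0.73, adjusted p = 0.0417 in limma), with the replicate number as a block (limma adjusted p = 0.034), without the third 5xFAD + PLX5622 hippocampus library (-0.91, limma adjusted p = 0.015) and without both libraries that held liver transcripts (-0.99, limma adjusted p = 0.0205). It was also called without replicate 4 of 5xFAD hippocampus (limma adjusted p = 0.0459) or replicate 3 of Wild-type hippocampus (limma adjusted p = 0.0438). The cortical value was called without replicate 3 of both 5xFAD and Wild-type hippocampus (limma adjusted p = 0.0362).

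Psmb8 had 1.53, 1.49, 1.99 and 1.33 RPKM in 5xFAD + PLX5622 hippocampus, against 6.20, 3.54, 7.75 and 3.08 RPKM in 5xFAD hippocampus. All 4 treated libraries lay below all untreated ones, and they were closer together. Psmb8 fell by 1.55 on the log2 scale (SE 0.322, limma adjusted p = 0.00166), a call that held under every alternative tried. In thalamus it had 0.778, 1.06, 1.50 and 1.06 RPKM in 5xFAD + PLX5622 libraries, all below the 1.56, 3.46, 2.13 and 2.66 RPKM of 5xFAD libraries, and fell by 1.07 (limma adjusted p = 0.0422). The thalamic call was lost when any 1 of 8 of the 48 libraries was left out, at a limma adjusted p of up to 0.137 (without replicate 2 of 5xFAD thalamus). In cortex the log2 fold change was -0.97 (limma adjusted p = 0.073). It was called without replicate 2 of 5xFAD cortex (-1.16, limma adjusted p = 0.0403) or of 5xFAD + PLX5622 cortex (-1.21, limma adjusted p = 0.0257). Psmb9 had -1.44 (limma adjusted p = 0.0903), -1.33 (limma adjusted p = 0.129) and -0.76 in cortex, hippocampus and thalamus. With voom the hippocampal Psmb9 value was called (-1.50, limma adjusted p = 0.0484). It was also called with a pseudocount of 1 (-0.84, limma adjusted p = 0.0433) and without replicate 4 of 5xFAD hippocampus (-1.70, limma adjusted p = 0.0468). The cortical value was called without replicate 2 of 5xFAD cortex (-1.74, limma adjusted p = 0.0478) or replicate 1 of 5xFAD + PLX5622 cortex (-1.79, limma adjusted p = 0.0363).

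Tap1, Tap2 and Tapbp were not called with all libraries fitted. Tapbp had 10.8, 10.5, 12.96 and 10.2 RPKM in 5xFAD + PLX5622 hippocampus, against 14.997, 13.4, 14.9 and 13.03 RPKM in 5xFAD hippocampus (log2 fold change -0.34, limma adjusted p = 0.205), and all treated values lay below the lowest untreated one. In cortex the Tapbp groups did not overlap either (-0.38, limma adjusted p = 0.145). Tap1 had log2 fold changes of -0.28, -0.73 (limma adjusted p = 0.195) and -0.43 in cortex, hippocampus and thalamus, and Tap2 had 0.07, -0.32 (limma adjusted p = 0.545) and -0.11. The hippocampal Tap1 value was called without replicate 4 of 5xFAD hippocampus (-1.05, limma adjusted p = 0.0347).

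**Figure D2:**
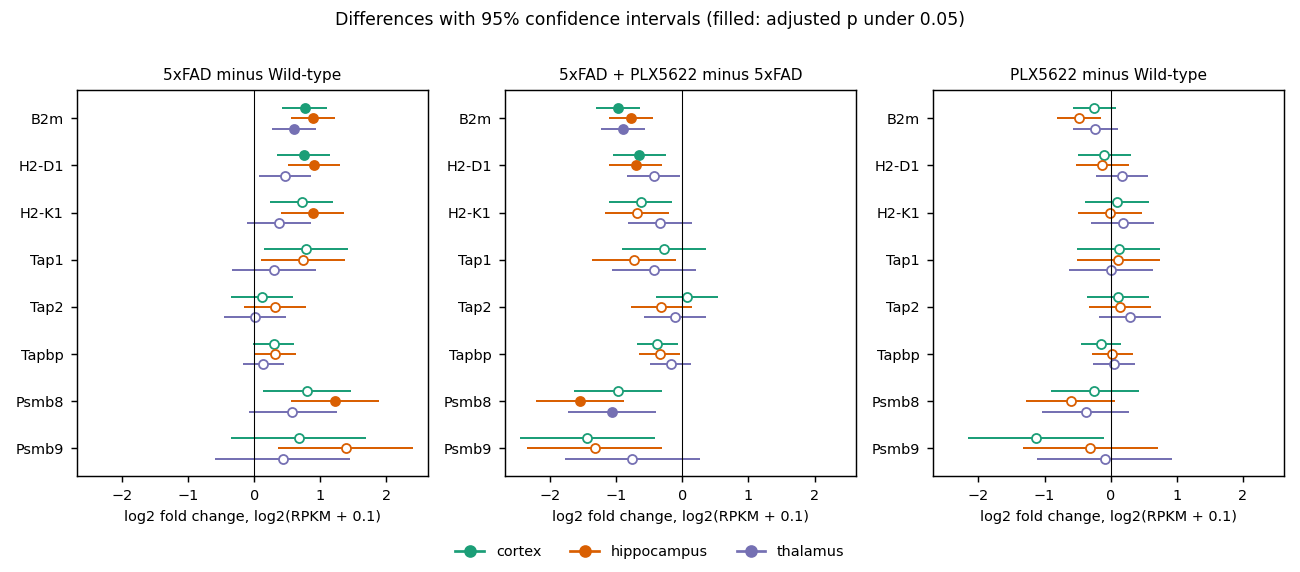
Log2 fold change of log2(RPKM + 0.1) for each of the 8 genes (x axis) with its 95% confidence interval from limma, by gene (y axis), with 1 panel per comparison and 1 colour per region, and filled points passed the adjusted p of 0.05. Filled points are B2m in all regions for 5xFAD against Wild-type (0.60 to 0.89) and for 5xFAD + PLX5622 against 5xFAD (-0.98 to -0.78), with H2-D1, H2-K1 and Psmb8 in some regions, and none for PLX5622 against Wild-type.

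In mice without the transgenes, PLX5622 left the 8 genes without a call. No gene was called by limma in cortex, hippocampus or thalamus, against 1.38%, 2.77% and 3.84% of all genes. At an unadjusted p under 0.05, 1, 1 and 0 of the 8 passed, and voom on the recovered reads called 0 in each region. B2m had 47.3, 51.3, 43.7 and 47.1 RPKM in PLX5622 hippocampus, all below the 57.1, 60.0, 88.1 and 62.8 RPKM of Wild-type hippocampus (log2 fold change -0.48, SE 0.157, limma adjusted p = 0.0682). In cortex it had 48.4, 50.6, 50.9 and 48.7 RPKM in PLX5622 libraries, against 66.7, 52.3, 59.8 and 57.1 RPKM in Wild-type libraries (log2 fold change -0.24, limma adjusted p = 0.492). Every PLX5622 library lay below every Wild-type library for 2.84% of all genes tested in cortex and 8.32% in hippocampus. The heavy chains had log2 fold changes from -0.12 to 0.18 over both genes and the 3 regions. Psmb9 in cortex had -1.13 (limma adjusted p = 0.224) on 1 to 3 reads per PLX5622 library.

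The effect of PLX5622 was then compared between the genotypes, as the log2 fold change in 5xFAD mice minus that in mice without the transgenes. For B2m this difference was -0.73 (95% confidence interval -1.18 to -0.28, unadjusted p = 0.0021 in limma) in cortex, -0.30 (-0.75 to 0.15) in hippocampus and -0.67 (-1.12 to -0.22, unadjusted p = 0.00476 in limma) in thalamus. None passed adjustment over all genes (limma adjusted p of 1, 0.564 and 0.999). Of the 8 genes, 0 were called in each region, against 0%, 0.332% and 0.00626% of all genes, while 3, 3 and 2 passed an unadjusted p under 0.05 in limma and voom called 0. The median over the 8 genes was -0.48 (cortex), -0.63 (hippocampus) and -0.56 (thalamus).

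The treated 5xFAD mice were also set against both groups without the transgenes. Against Wild-type mice, 0 of the 8 genes were called by limma in cortex, hippocampus or thalamus (1.06%, 0.983% and 1.75% of all genes), 0 had an unadjusted p under 0.05 and voom called 0. The median log2 fold change was 0.00, 0.03 and -0.11, and the values ran from -0.77 (Psmb9) to 0.50 (Tap1) in cortex, from -0.33 (Psmb8) to 0.20 in hippocampus and from -0.49 (Psmb8) to 0.03 in thalamus. B2m had -0.22, 0.11 and -0.30 in cortex, hippocampus and thalamus. Against PLX5622 mice, again 0 were called in each region (0.0626%, 0.808% and 0.0376% of all genes), 0, 1 and 0 had an unadjusted p under 0.05 and voom called 0. The 1 gene was B2m in hippocampus, with 62.3, 72.5, 86.8 and 65.0 RPKM in 5xFAD + PLX5622 libraries and 47.3, 51.3, 43.7 and 47.1 RPKM in PLX5622 libraries (log2 fold change 0.59, limma adjusted p = 0.0687). These groups did not overlap, but the share of all genes with groups apart was not taken for this pair, so the separation cannot be weighed. With replicate 3 of 5xFAD and of Wild-type hippocampus left out of the fit, a choice made after seeing the data, the same fold change was called (limma adjusted p = 0.0235).

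The share of the untreated level that was left with PLX5622 was then taken for each gene and for the microglia markers. In 5xFAD mice B2m kept 49.0% of its mean RPKM in cortex (44.2% to 56.7% when each library was left out), 57.7% in hippocampus (53.7% to 65.2%) and 53.9% in thalamus (50.4% to 57.0%). Psmb8 kept 49.8%, 30.8% and 44.8% and Psmb9 35.4%, 33.7% and 56.7% in the same regions. H2-D1 kept 61.9%, 58.8% and 74.1%, H2-K1 63.2%, 60.6% and 77.9%, and Tapbp 77.2%, 78.9% and 88.7%. Tap1 kept 80.4%, 52.5% and 71.7%, and Tap2 105%, 77.5% and 92.3%. The summed microglia markers kept 9.92%, 23.1% and 7.32%. In mice without the transgenes the microglia markers kept 11.4%, 11.6% and 12.7%, while B2m kept 84.1%, 70.7% and 85.1%, Psmb8 80.98%, 59.7% and 76.5%, and H2-K1 108%, 93.5% and 116%. Psmb9 kept 37.9%, 94.3% and 89.5% in these mice, on few reads.

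**Figure D3:**
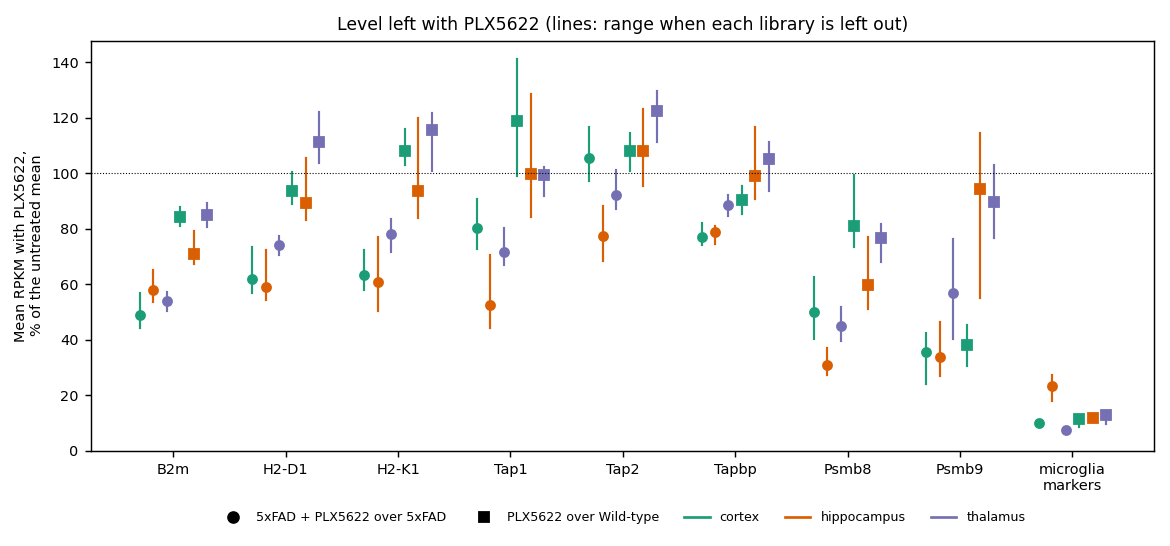
Mean RPKM with PLX5622 as a percentage of the untreated mean (y axis, from 0, dotted line at 100%) for the 8 genes and the sum of 15 microglia markers (x axis), in 5xFAD + PLX5622 over 5xFAD and PLX5622 over Wild-type for each region; lines span the values when each library was left out. The microglia markers sit at 7.32% to 23.1%, below every one of the 8 genes, whose lowest value in 5xFAD mice is 30.8% (Psmb8 in hippocampus).

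Across the 48 libraries the log2 level of B2m had a Pearson correlation of 0.80 with the log2 sum of the microglia markers, Psmb8 0.69, Psmb9 0.56, H2-D1 0.53, H2-K1 0.43, Tapbp 0.38, Tap1 0.29 and Tap2 0.05. The points share region, genotype and diet, so these are descriptions. Among the 12 libraries of one condition, B2m had 0.83 in 5xFAD + PLX5622, 0.75 in 5xFAD, 0.31 in PLX5622 and 0.10 in Wild-type mice. H2-K1 had 0.38, 0.68, 0.57 and 0.47 in the same order. In limma, 15, 12 and 15 of the 15 microglia markers were lower in 5xFAD + PLX5622 than in 5xFAD cortex, hippocampus and thalamus. Singly, 1, 2 and 1 were called higher in 5xFAD than in Wild-type mice, while their sum did not overlap between these groups in any region, as given above. Of 7 border macrophage markers 5 could be tested, and 4 were lower in 5xFAD + PLX5622 than in 5xFAD mice in each region. Of the T and natural killer cell markers 3 of 13 were in the table (Cd4, Trac and Trbc2), and their summed RPKM was 1.24 to 11.7. In the 9 comparisons within a region limma called 0 of these 3, with 3 of 27 tests at an unadjusted p under 0.05, and 0 of the 10 endothelial markers, with 9 of 90 tests at an unadjusted p under 0.05. It called 9 of 72 tests of astrocyte markers (25 at an unadjusted p under 0.05) and 2 of 54 of neuron markers (11 at an unadjusted p under 0.05). The share of all genes called in these comparisons was 0.413% to 3.84%, and the directions of these marker calls are not reported here. It called 0 of 54 for choroid plexus (0 at an unadjusted p under 0.05) and 0 of 54 for oligodendrocyte markers (4 at an unadjusted p under 0.05). The part of cell number in the results was not tested.

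**Figure D4:**
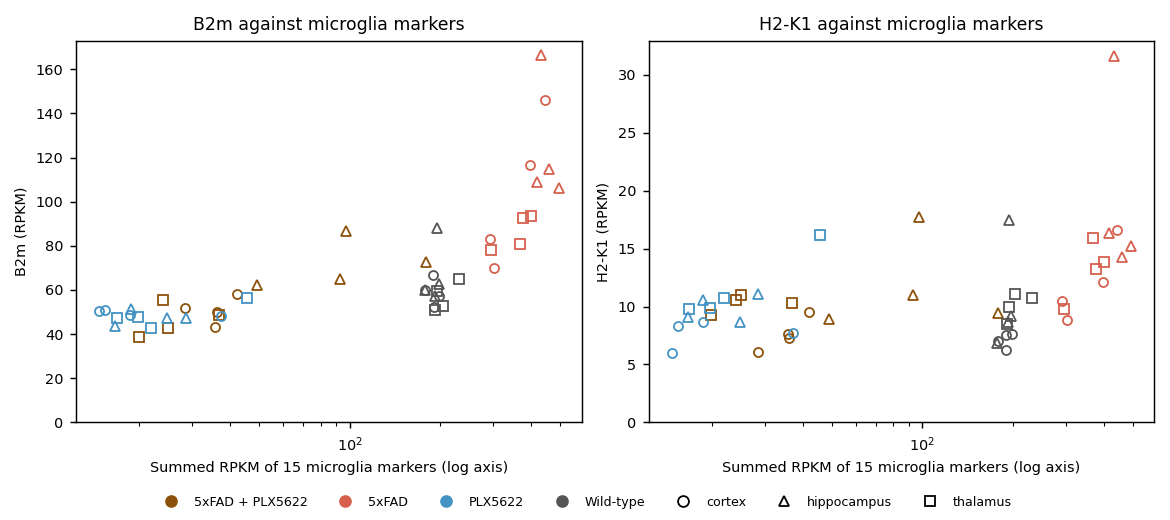
RPKM of B2m (left panel) and H2-K1 (right panel) on the y axis against the summed RPKM of 15 microglia markers (x axis, log scale), 1 point for each of 48 libraries, coloured by condition and shaped by region. The 5xFAD libraries lie to the right with B2m from 69.9 to 167 RPKM, while the libraries on PLX5622, most of which lie to the left, have B2m at 38.6 to 86.8 RPKM.

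Ratios within a library were taken between each inducible proteasome chain and the standard chain it replaces. The ratio Psmb8/Psmb5 was 0.462, 0.290, 0.701 and 0.287 in 5xFAD hippocampus, against 0.177, 0.127, 0.233 and 0.0822 in Wild-type hippocampus. All 5xFAD ratios were above all Wild-type ones (log2 difference 1.49, exact two-sided permutation p = 0.0286). In 5xFAD + PLX5622 hippocampus the mean ratio was 0.104 ± 0.0149, against 0.435 ± 0.195 in 5xFAD hippocampus (SD, n = 4 each, log2 difference -1.97, exact permutation p = 0.0286). In thalamus it averaged 0.199 in 5xFAD and 0.121 in Wild-type mice (log2 difference 0.69), and 0.0958 in 5xFAD + PLX5622 mice (log2 difference from 5xFAD -1.08), with an exact permutation p = 0.0286 for both. In cortex it averaged 0.209 in 5xFAD and 0.139 in Wild-type mice, which overlapped (log2 difference 0.58, exact permutation p = 0.171), and the 5xFAD + PLX5622 mean was 0.104 against 0.209 in 5xFAD mice (log2 difference -1.06, exact permutation p = 0.0571). Psmb9/Psmb6 averaged 0.0185 in 5xFAD + PLX5622 hippocampus and 0.0585 in 5xFAD hippocampus (log2 difference -1.48, exact permutation p = 0.0571). Over the 36 comparisons of 4 ratios no p passed Benjamini-Hochberg adjustment, where the lowest was 0.257 from the exact permutation tests. The exact permutation p cannot go below 0.0286, so a few separated ratios among 36 tests could not pass. No conclusion is drawn from this adjustment. For the third inducible chain, Psmb10, the ratio to Psmb7 averaged 0.148 to 0.192 over the 12 groups. The ratio of the heavy chains, H2-D1/H2-K1, averaged 1.32 to 1.54.

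**Figure D5:**
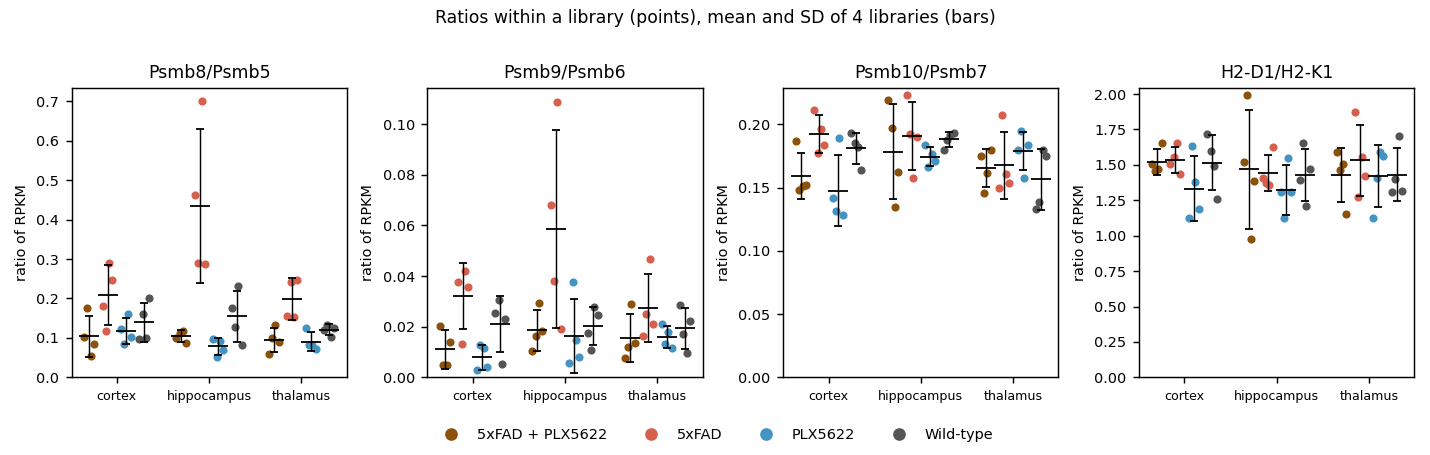
Ratio of RPKM within a library (y axis, from 0) for Psmb8/Psmb5, Psmb9/Psmb6, Psmb10/Psmb7 and H2-D1/H2-K1, by region (x axis) and condition, with 1 point per library and bars for the mean and SD of 4 libraries. Psmb8/Psmb5 reaches 0.287 to 0.701 in 5xFAD hippocampus and at most 0.233 in Wild-type hippocampus, while the group means of H2-D1/H2-K1 stay between 1.32 and 1.54.

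Levels were then ordered over the 12 groups. B2m was highest in 5xFAD hippocampus (124 ± 28.5 RPKM, SD, n = 4), then 5xFAD cortex (104 ± 34.3) and 5xFAD thalamus (86.3 ± 7.92). After them came 5xFAD + PLX5622 hippocampus (71.7 ± 10.99), Wild-type hippocampus (67.0 ± 14.3), Wild-type cortex (59.0 ± 6.01) and Wild-type thalamus (57.0 ± 6.56). The lowest were 5xFAD + PLX5622 cortex (50.9 ± 6.07), PLX5622 cortex (49.6 ± 1.27), PLX5622 thalamus (48.5 ± 5.65), PLX5622 hippocampus (47.4 ± 3.13) and 5xFAD + PLX5622 thalamus (46.5 ± 7.41). 5xFAD hippocampus was the highest group for 7 of the 8 genes. The exception was Tap2, with 4.47 RPKM in PLX5622 thalamus, 4.42 in 5xFAD hippocampus and 2.42 in its lowest group, Wild-type cortex. For each of the 8 genes, all 11 pairs of neighbouring groups in the order overlapped. Neighbours were set by the order of the means itself, so their overlap does not speak to groups further apart. B2m in 5xFAD and Wild-type libraries of a region did not overlap, as given above.

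Between regions no gene of the 8 was called by limma. In Wild-type mice 0 were called between hippocampus and cortex (4.31% of all genes), hippocampus and thalamus (11.3%) or cortex and thalamus (18.2%), with 4, 0 and 5 at an unadjusted p under 0.05 and 0 called by voom. In 5xFAD mice 0 were called between hippocampus and cortex (5.36%), hippocampus and thalamus (5.49%) or cortex and thalamus (12%), with 4, 4 and 1 at an unadjusted p under 0.05 and 1, 2 and 0 called by voom. The smallest adjusted p-values in 5xFAD mice were those of hippocampus over cortex for Psmb8 (log2 0.93, limma adjusted p = 0.0875), Tap2 (0.69, limma adjusted p = 0.0662) and H2-D1 (0.55, limma adjusted p = 0.0873), and those of hippocampus over thalamus for Psmb8 (0.99, limma adjusted p = 0.0642) and B2m (0.50, limma adjusted p = 0.0523). The difference of the 5xFAD effect between hippocampus and cortex, and between hippocampus and thalamus, was not called for any of the 8 genes (0% and 0% of all genes), with 0 and 0 at an unadjusted p under 0.05 in limma and 0 by voom. Its median over the 8 genes was 0.17 against cortex and 0.44 against thalamus, so the larger number of calls in hippocampus does not show that the regions differ.

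The rest of the class I pathway was described from lists of genes. The 13 tested genes of peptide loading, trimming and the proteasome activator, and the 14 chains of the standard 20S proteasome, gave no call by limma in any of the 9 comparisons within a region, with 4 of 117 and 7 of 126 tests at an unadjusted p under 0.05. In 5xFAD against Wild-type hippocampus the median log2 fold change was 0.03 for loading and trimming (range -0.36 to 0.24) and 0.01 for the 20S chains (range -0.22 to 0.16). Psme1, a subunit of the proteasome activator, had 0.24 (limma adjusted p = 0.356), and Psmb10 had 0.08 (limma adjusted p = 0.889). The standard chains that Psmb8 and Psmb9 replace had -0.22 for Psmb5 (limma adjusted p = 0.371) and 0.16 for Psmb6 (limma adjusted p = 0.324).

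Of the other class I heavy chains, 17 of 23 could be tested. H2-M3, which presents formylated peptides, was higher in 5xFAD than in Wild-type cortex (log2 fold change 1.07, limma adjusted p = 0.0091), the only call of the list in 5xFAD against Wild-type mice. H2-T24 fell with PLX5622 in 5xFAD mice by 1.40 in cortex (limma adjusted p = 0.00187), by 1.05 in hippocampus (limma adjusted p = 0.0261) and by 1.31 in thalamus (limma adjusted p = 0.00395), the only call of the list in each. H2-K2 was higher in PLX5622 than in Wild-type thalamus (1.02, limma adjusted p = 0.00952). On a list of 10 class I receptors only Lilrb4a, an inhibitory receptor of leukocytes, could be tested. Whether Lilrb4a binds class I molecules is not shown by these data. It was higher in 5xFAD than in Wild-type cortex (2.15, limma adjusted p = 0.00157), hippocampus (2.22, limma adjusted p = 0.00106) and thalamus (1.90, limma adjusted p = 0.00576), and it was lower with PLX5622 in 5xFAD cortex (-2.03, limma adjusted p = 0.00298) and thalamus (-2.11, limma adjusted p = 0.00196), with -0.59 in hippocampus (limma adjusted p = 0.584). The heavy chain genes are close relatives of one another and their reads are uncertain as for H2-K1 and H2-D1.

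Of 21 regulators of class I transcription, 4, 6 and 1 were higher in 5xFAD than in Wild-type cortex, hippocampus and thalamus, and none was lower. Nlrc5, the transactivator of class I promoters, had 2.48, 0.736, 1.56 and 0.573 RPKM in 5xFAD hippocampus, against 0.212, 0.135, 0.673 and 0.389 RPKM in Wild-type hippocampus (log2 fold change 1.61, limma adjusted p = 0.00556). The groups overlapped through the third Wild-type library. Among the others, Irf8 rose by 1.64 (limma adjusted p = 0.000683), Irf1 by 0.66 (limma adjusted p = 0.0411), Irf9 by 0.49 (limma adjusted p = 0.0257) and Ifngr1, a chain of the interferon gamma receptor, by 0.38 (limma adjusted p = 0.0136). In cortex those higher included Irf7 (1.28), Irf8 (1.23) and Irf9 (0.49), and in thalamus the call was Irf8 (1.07, limma adjusted p = 0.0371).

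With PLX5622 in 5xFAD mice, 4 of the 21 regulators were lower in each region and none was higher. In hippocampus these included Irf8 (-2.38), Nlrc5 (-1.25, limma adjusted p = 0.0401) and Ifngr1 (-0.67). Irf8 is itself a gene of microglia and other myeloid cells. In cortex, Irf8 and Ifngr1 were also lower in PLX5622 than in Wild-type mice (-1.89 and -0.46). Nlrc5 had 0.17 in PLX5622 against Wild-type hippocampus (limma adjusted p = 0.911), which is another region, so these values are not a like-for-like contrast.

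Of the interferon response genes, 18 of 20 could be tested, and 1, 2 and 0 were higher in 5xFAD than in Wild-type cortex, hippocampus and thalamus. Oasl2 rose by 1.35 in cortex (limma adjusted p = 0.00685) and by 1.51 in hippocampus (limma adjusted p = 0.00222), and Usp18, which removes ISG15 from proteins, by 1.04 in hippocampus (limma adjusted p = 0.0407). The median of the list in hippocampus was 0.74. With PLX5622 in 5xFAD mice 2, 5 and 0 were lower. In cortex these were Oasl2 (-1.19) and Parp14 (-1.41), and in hippocampus Oasl2 (-1.27), Parp14 (-1.04), Isg15 (-1.40), Trim30a (-1.22) and Usp18 (-1.73). Of the class II genes 6 of 7 could be tested, and Cd74, the invariant chain, was higher in 5xFAD than in Wild-type hippocampus (2.27, limma adjusted p = 0.0428). With PLX5622 in 5xFAD mice 2, 3 and 0 class II genes were lower, Cd74 among them in cortex (-2.33) and hippocampus (-2.61).

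Genes with the most similar pattern to the 8 over the 48 libraries were found by Pearson correlation of log2 levels with the mean standardized level of the 8. These were Rnf213 (r = 0.869), Bst2 (0.853), Uba7 (0.850), Lgals3bp (0.844), Irf9 (0.843) and Oasl2 (0.843), and Nlrc5 (0.836) was among the top 10. Taken singly, B2m was most like Ctsz (0.893) and Grn (0.887), H2-D1 and H2-K1 were most like each other (0.906), Tap1 was most like Nlrc5 (0.855) and Tapbp most like Ucp2 (0.872). Tap2 was most like St5 (0.83), Psmb8 most like B2m (0.824) and Psmb9 most like Uba7 (0.724). Among the 8 genes the pairwise correlation ran from 0.19 (B2m with Tap2) to 0.91 (H2-D1 with H2-K1). With the mean of each group taken out, it ran from 0.24 (Tap2 with Psmb8) to 0.80 (B2m with H2-D1). The 48 libraries share region, genotype and diet, so all correlations over them are descriptions.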

How the data were processed

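The authors sequenced 50 bp single-end reads, aligned them to mm10 with STAR, counted genes with featureCounts, removed low-count genes, applied edgeR normalization and deposited RPKM for 16014 genes in 48 libraries, and tool versions are not given in the sources used here. Extraction and library kits are described differently in the labels and the methods, and whether normalization factors entered the RPKM is not stated. The reads recovered were 89.4% to 106.91% of the library size that the RPKM values imply. That size was thus not the plain sum of these reads, and the part of normalization factors in it was not tested. No per-sample column was left unmapped (0 columns). Reads recovered from the RPKM steps were whole for all genes within 0.05 reads. Genes with at least 0.2 RPKM in at least 4 libraries were tested (15975). Values of log2(RPKM + 0.1) from all 48 libraries were fitted together as 12 group means with limma (version 3.58.1, run in R 4.3.3), using eBayes with a mean-variance trend. Benjamini-Hochberg adjustment took the study's 15 comparisons together, and 11 further comparisons were each adjusted alone. Python 3.11.15 with pandas 2.3.3, numpy 2.4.6 and scipy 1.17.1 gave the other values. The fit was tested on simulated data.

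Every one of the 8 genes is named. From each pathway list, genes could be named if called in a comparison within a region or among the 4 with the smallest p in 5xFAD against Wild-type hippocampus. The 8 genes and all lists were chosen with earlier results of these data known. The methods give 4 mice per group, and the labels do not tie libraries to animals across regions, so p-values measure the spread between these libraries. Alternatives changed the pseudocount, filter, scaling, trend, adjustment, blocks and libraries used, and voom was run on the recovered reads. Deviations of same-numbered libraries had a median correlation of 0.007 across regions (48 pairs, 9 over 0.1) and 0.019 across conditions (72 pairs, 18 over 0.1). In PLX5622 hippocampus and thalamus, groups not compared here, the 4 same-numbered pairs had 0.11 to 0.371. Pairs of Wild-type and PLX5622 thalamus were mixed (-0.237 to 0.666). Such correlations cannot exclude that libraries of different regions share an animal. Some genes of the lists are not reported here.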

Additional observations from a re-analysis of the deposited data

Results flagged for a closer look

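Of 144 groups of 4 libraries examined, 7 held a lone value, where chance alone flags about 1 in 20. The third 5xFAD hippocampus library lay far above the other 3 for B2m (167 RPKM, against 106 to 115), H2-D1 (42.9 RPKM, against 20.9 to 23.3) and H2-K1 (31.6 RPKM, against 14.3 to 16.4), and the same library had the highest summed class II level. The first PLX5622 thalamus library lay above the others for H2-K1 (16.2 RPKM, against 9.83 to 10.8) and for the ratio Psmb8/Psmb5 (0.125, against 0.0727 to 0.0814). That library was also high in the summed RPKM of choroid plexus markers (2291, against 27.7 to 370), class II genes (12.2, against 5.53 to 6.78) and border macrophage markers (1.94, against 0.188 to 0.482). The first Wild-type thalamus library was low for Tap1 (0.909 RPKM, against 1.28 to 1.30). The first 5xFAD + PLX5622 cortex library was high for the ratio Psmb10/Psmb7 (0.187, against 0.148 to 0.152). The part of other cells or tissue in these values was not tested.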

How the results depend on the processing

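The 208 fitted values of the 8 genes were refitted under 61 alternatives, giving 12598 values. No called value changed sign, 41 lost their call and 66 gained one, and 154 values that were not called changed sign. B2m kept its calls under all alternatives except in 5xFAD against Wild-type thalamus, and Psmb8 in 5xFAD + PLX5622 against 5xFAD hippocampus kept its call under all. The cause of each change was not tested. Counts below are of the 8 genes called. With each comparison adjusted by itself, 5xFAD against Wild-type gave 1 in cortex, 2 in hippocampus and 0 in thalamus (in place of 2, 4 and 1), 5xFAD + PLX5622 against 5xFAD gave 1 in cortex and 1 in thalamus (in place of 2 and 2), and 5xFAD hippocampus against 5xFAD thalamus gave 1 (in place of 0). With each region fitted alone, 5xFAD against Wild-type gave 1 in cortex and 1 in hippocampus, and 5xFAD + PLX5622 against 5xFAD gave 1 in cortex. With voom on recovered reads, 5xFAD + PLX5622 against 5xFAD gave 1, 5 and 1 in cortex, hippocampus and thalamus, and 5xFAD hippocampus gave 1 against cortex and 2 against thalamus. With a pseudocount of 1, 5xFAD + PLX5622 against 5xFAD thalamus gave 1, and 5xFAD hippocampus gave 1 against cortex and 2 against thalamus. 5xFAD hippocampus against thalamus also gave 1 with rescaled libraries and 1 without both libraries with liver transcripts. Correlations of deviations showed no steady pairing by replicate number in the groups compared here, but they cannot exclude shared animals. With the replicate number as a block, 5xFAD hippocampus against thalamus gave 2, with the animal as a random block it gave 1, and no other count moved by over 1.5 times. Leaving out replicate 3 of 5xFAD and of Wild-type hippocampus, an alternative chosen after seeing the data, gave 1 for 5xFAD + PLX5622 against PLX5622 hippocampus. With each library left out in turn, 5xFAD against Wild-type gave 1 to 3 in cortex, 2 to 6 in hippocampus and 0 to 1 in thalamus, and 5xFAD + PLX5622 against 5xFAD gave 1 to 4, 2 to 6 and 1 to 2. Such ranges were 0 to 1 for PLX5622 against Wild-type hippocampus, 0 to 4 for 5xFAD hippocampus against cortex, 0 to 2 against thalamus and 0 to 1 for 5xFAD + PLX5622 against PLX5622 hippocampus, and 0 for all other comparisons. The B2m call in 5xFAD against Wild-type thalamus was lost without replicate 3 of 5xFAD or replicate 1 or 4 of Wild-type thalamus (highest limma adjusted p = 0.0515). The H2-D1 calls in 5xFAD + PLX5622 against 5xFAD were lost with each region fitted alone in cortex (limma adjusted p = 0.111) and hippocampus (limma adjusted p = 0.221), and in cortex with voom (limma adjusted p = 0.065). The Psmb8 call in 5xFAD + PLX5622 against 5xFAD thalamus was lost with a pseudocount of 1 (-0.70, limma adjusted p = 0.0559) and without each of 8 libraries (highest limma adjusted p = 0.137). Rescaling the libraries changed the share of higher calls over all genes to 12.2% in 5xFAD + PLX5622 against 5xFAD hippocampus (in place of 23.3%), 25.7% in PLX5622 against Wild-type hippocampus (in place of 12%) and 88.3% in 5xFAD against Wild-type hippocampus (in place of 78.6%). Depth limits Psmb9 most, with a median of 7 reads per library.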
